A study of Mus musculus with 16 samples.

Results

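Spinal cord from 7 mice with a chronic compression injury that had been given vehicle (SCI + Vehicle) was compared with cord from 2 uninjured mice (Uninjured Control). These are 9 of the 16 libraries of the study, chosen by their group labels, and all came from female C57BL/6J mice. The test covered 10854 of 24411 genes, those with at least 10 counts in each of the 9 libraries. The SCI + Vehicle mice were injured at 12 wk of age by a laminectomy at vertebral level T8 to T9 and a lateral squeeze of the cord with forceps held 0.25 mm apart. From 2 wk after injury they were injected i.p. each day for 4 wk with the solvent mixture of the drug arm (DMSO, PEG400, Tween 80 and saline). Their cords were taken at 18 wk of age, 6 wk after injury in the labels and 44 d in the methods. The Uninjured Control mice were untreated and were 12 wk old in the labels and 14 wk old in the methods, and no sham surgery is described for them. Injury, surgery, injections and age therefore differ together between the groups and cannot be told apart. From each mouse, 5 mm of cord around the lesion (T9 to T10 in the labels) or at the matching level was taken after perfusion with cold saline, and total RNA was sequenced with a stranded low-input kit. In such whole-tissue RNA, fewer cells of a type and less RNA per cell cannot be told apart.

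By the chronic phase a compressed cord holds a lesion core of phagocytes and fibroblasts, a border of hypertrophic astrocytes and spared tissue with demyelinated and remyelinating axons. Microglia, the resident macrophages of the cord, and monocyte-derived macrophages take up myelin debris, which is rich in cholesterol, and degrade it in lysosomes. Excess sterol is exported to lipoproteins under the control of the liver X receptors (LXR), while sterol synthesis is run by the transcription factor SREBP2, which is held inactive when membrane sterol is high. Neurons lost at the lesion are not replaced, precursors make new oligodendrocytes, and astrocytes change their intermediate filaments, channels and transporters.

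Total counts on genes were 14823292 to 23933435 (median 23346474) in the SCI + Vehicle libraries and 20211276 and 22368736 in the Uninjured Control libraries. The controls differed from the injured mice in more than level: counts were found for 12732 and 12356 genes in them and for 16399 to 19338 genes in the SCI + Vehicle libraries. Among the 14171 genes with at least 10 counts in all 7 SCI + Vehicle libraries, 3317 had fewer than 10 in a control, of which 1204 were at 0 in both controls and 2018 at 0 in exactly 1 of them. In the other direction, 189 genes with at least 10 counts in both controls had fewer than 10 in an SCI + Vehicle library, 82 of them on the liver list. The minimum thus took out many more genes that were low in a control than genes that were low in an injured mouse. Genes that missed the minimum were not tested and are given by their counts. Even among the tested genes 11.2% differed more than 4-fold between the 2 controls, against 0.129% to 1.01% between any pair of SCI + Vehicle libraries. The median SD of log2 CPM was 0.464 in the controls and 0.232 in the SCI + Vehicle group, where CPM are counts per 1000000 counts on the tested genes after TMM scaling. Levels below are given as control 1 and control 2 in that order, against the lowest, the highest and the median of the 7 injured mice. Genes that define cells of the cord (Mbp of oligodendrocytes, Gfap of astrocytes, Snap25 of neurons) were counted in all 9 libraries, while the microglial genes P2ry12 and Tmem119 were at 0 in control 2. Control 1, and less so control 2, also held transcripts of liver, which are set apart at the end, and SCI + Vehicle replicate 3 held transcripts of skeletal muscle.

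A gene was called a DEG at a Benjamini-Hochberg adjusted p below 0.05 in edgeR's quasi-likelihood test and a change of more than 25%. Of the tested genes, 1334 (12.3%) were upregulated and 1533 (14.1%) downregulated in SCI + Vehicle, and 1526 of the latter lay outside the liver list. The balance of the 2 directions depends on the count minimum: with no minimum, 3437 genes were upregulated and 1398 downregulated. A called gene was termed separated when both controls lay on the same side of all 7 SCI + Vehicle values and farther from them than from each other. This held for 586 upregulated genes (5.4% of those tested) and 643 downregulated genes (5.92%). Of all 10854 tested genes, called or not, 1728 had all 7 SCI + Vehicle values above both controls and 1748 had them below both. Where named genes are said below not to overlap, this is to be read against those counts. Many were named for a small p, so it is no separate support. Without control 1 the fit called 2395 genes upregulated and 1993 downregulated, and without control 2 it called 2542 and 2231, the lone control then being assumed to vary like the injured mice. When each of the 9 libraries was left out in turn, 866 upregulated and 650 downregulated DEGs were called in all 9 fits. These calls rest on 1 estimate of the spread shared by both groups. When limma voom gave each group its own weight, 15 genes remained called as upregulated and 8 as downregulated, all of them also DEGs in edgeR. The 15 included Gfap, Ctsd, Ctss, Serpina3n, A2m, Apoe, C4b, C1qa, C1qb, C1qc, Csf1r, Itgb5, Meg3 and Pnisr, and the 8 included Msmo1, Fdps, Hagh, Reep6, Hoxd10, Cd1d1 and the liver gene Adh1. Every other DEG named below lost its call in that fit.

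**Figure D1:**
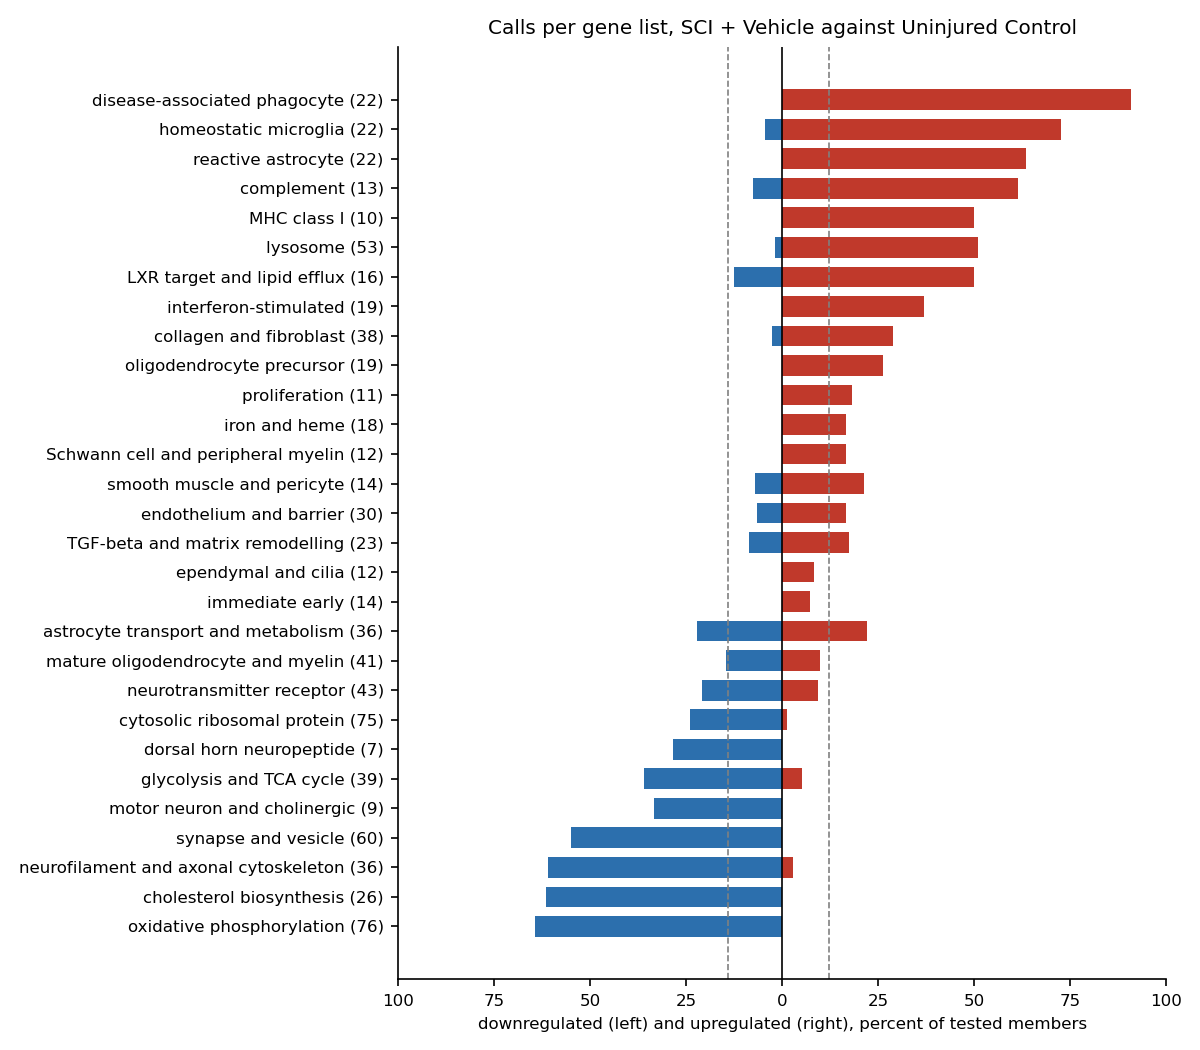
Share of the tested members of each gene list that was upregulated (red, to the right) or downregulated (blue, to the left) in SCI + Vehicle against Uninjured Control, in percent, with the number of tested members after the list's name; dashed lines mark the shares over all 10854 tested genes, 12.3% and 14.1%. Phagocyte, microglia and reactive astrocyte lists reach far to the right, and cholesterol biosynthesis, oxidative phosphorylation, neurofilament and synapse lists far to the left.

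Members of the gene lists described next can stand in more than 1 list, and the counts of a list are to be read against the 12.3% and 14.1% over all tested genes. The homeostatic microglia list holds genes that microglia express at rest. Some of them, such as Ctss and Laptm5, are also expressed by macrophages or other haematopoietic cells, so the list does not mark a resting state alone. Of its 22 tested members, 16 were upregulated, 1 was downregulated and 5 were not called. The median log2 fold change was 2.30 beside -0.04 over all tested genes. Ctss encodes cathepsin S, a lysosomal protease of microglia and macrophages (chromosome 3, 95526786 to 95556405 on GRCm38), and had 75.8 and 77.8 CPM against 658 to 1009 CPM, median 822 (log2 fold change 3.40 ± 0.20 SE, adjusted p = 2.16e-06). C1qb, the B chain of the complement subunit C1q, had 15.9 and 26.7 CPM against 206 to 261 CPM, median 236 (log2 fold change 3.46 ± 0.22 SE, adjusted p = 2.16e-06). Its partner chain gene C1qc had 32.5 and 40.1 CPM against 210.3 to 279 CPM, median 248 (log2 fold change 2.78 ± 0.17 SE, adjusted p = 2.16e-06). Csf1r, the receptor for colony stimulating factor 1 on which microglia depend for survival, had 52.2 and 44.9 CPM against 231 to 338 CPM, median 297 (log2 fold change 2.58 ± 0.17 SE, adjusted p = 2.37e-06). All 7 injured mice lay above both controls in these 4 genes, and the controls lay close together for Ctss and Csf1r. The third chain gene, C1qa, was at 19.1 and 38.1 CPM against 218 to 295 CPM, median 263, with a log2 fold change of 3.17. Laptm5, a lysosomal membrane protein of haematopoietic cells and microglia, and Cx3cr1, the fractalkine receptor, rose by 3.56 and 2.55 on the log2 scale, and both were separated.

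The microglial genes did not all move together. The downregulated member was Slc2a5, the fructose transporter GLUT5, with 2.47 and 18.5 CPM against 0.573 to 3.76 CPM, median 2.92. Only control 2 lay above the injured mice, and the gene was called in 6 of the 9 fits with 1 library left out. Sall1, a transcription factor of microglial identity, was not called, with 32.4 and 93.2 CPM against 70.6 to 94.9 CPM, median 82.4. Selplg, the P-selectin ligand, had 37.5 and 26.1 CPM against 36.6 to 56 CPM, median 47.3, and was not called either. Several defining members could not be tested because a control was at 0. P2ry12, the purinergic receptor of resting microglia, had 38 and 0 counts against 125 to 529, median 402, and Tmem119 had 126 and 0 counts against 206 to 449, median 339. Siglech had 130 and 0 counts against 279 to 599, median 412. All 3 were thus found in control 1 and not in control 2, where a count of 0 allows up to 3 counts, or 0.134 CPM of its total. On the CPM scale P2ry12 was at 1.99 in control 1 and at 8.66 to 23.2 in the SCI + Vehicle mice, while Tmem119 was at 6.61 and at 12.8 to 19.3. Of the 10 members not tested, all 10 had at least 10 counts in every SCI + Vehicle mouse, and 2 of them, Cd53 and Spi1, were at 0 in both controls.

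Genes of phagocytes in disease, the state that microglia and macrophages enter beside myelin debris and plaques, were upregulated in 20 of 22 tested members, with none downregulated and a median log2 fold change of 1.55. Gpnmb, a glycoprotein of lipid-laden phagocytes (chromosome 6, 49036518 to 49058182), had the largest change of any separated gene, with 7.45 and 2.11 CPM against 250.3 to 718 CPM, median 517 (log2 fold change 6.72 ± 0.56 SE, adjusted p = 1.48e-05). Ctsd, the aspartic protease cathepsin D, had 309 and 258 CPM against 1564 to 2363 CPM, median 2185 (log2 fold change 2.86 ± 0.18 SE, adjusted p = 2.16e-06). Apoe, the main apolipoprotein of the central nervous system, had 4258 and 2694 CPM against 12550 to 19294 CPM, median 15717 (log2 fold change 2.17 ± 0.21 SE, adjusted p = 5.77e-05). All 7 injured mice lay above both controls in each of these genes. Spp1, which encodes osteopontin, had 123 and 139 CPM against 414 to 632 CPM, median 504, and Ctsz, Grn and Ctsb rose by 1.79, 1.45 and 1.61 on the log2 scale. Axl, a receptor for phosphatidylserine-bound ligands, had 86.4 and 92.9 CPM against 180.3 to 235 CPM, median 201 (log2 fold change 1.22 ± 0.15 SE, adjusted p = 0.000211). Lyz2, the lysozyme of myeloid cells, whose reads can be shared with its close copy Lyz1, illustrates the spread of the controls: it was at 25.9 and 1.36 CPM against 418 to 1197 CPM, median 791, so that it was higher by 4.95 on the log2 scale against control 1 alone and by 9.20 against control 2 alone. Of the 22 tested members, Fabp5 and Ank were not called.

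A further 16 phagocyte genes were not tested, and each of them had at least 10 counts in all 7 SCI + Vehicle mice. Clec7a, the beta-glucan receptor dectin-1, had no counts in either control and 1005 to 2228 counts in the SCI + Vehicle mice. Lgals3, which encodes galectin-3, had none and 771 to 2082 counts, and Itgax, the integrin CD11c, none and 515 to 1638 counts. Set against the 3 counts that a count of 0 allows in each control library, these genes were at least 531-fold, 429-fold and 340-fold higher. Cst7, the cathepsin inhibitor cystatin F, was at least 159-fold higher by the same reckoning. Trem2, the lipid receptor of microglia, had 90 and 0 counts against 873 to 1933, median 1515, and Cd68, a lysosomal protein of macrophages, had 0 and 72 counts against 1472 to 3233, median 2843. Lpl, lipoprotein lipase, had 2 and 274 counts against 1549 to 4832, median 3138. In each of these 3 genes both controls were below every injured mouse, with 1 of the controls at or under 3 counts. These bounds cover counting error only, and a control library at 0 in a gene that the other control held was common here, as the counts of untested genes above show.

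Members of the border macrophage list, which marks macrophages of the meninges and vessels, missed the minimum in 12 of 15 cases. Dab2, an endocytic adaptor, was the only one called of 3 tested, with 23.7 and 14.7 CPM against 21.5 to 63.2 CPM, median 46.5, and it was no longer called without control 2. Cd163, the haemoglobin scavenger receptor, had 1.26 and 12.2 CPM against 3.46 to 20.4 CPM, median 11.6, so that control 2 lay within the injured range. Mrc1, the mannose receptor, had 186 and 0 counts against 120 to 961, median 519, and Lyve1 had 116 and 0 counts against 0 to 110, median 44. None of 23 lymphocyte genes was tested. Their summed level was 5.19 and 28.6 CPM in the controls and 11.9 to 47.1 CPM in the injured mice, with 1 and 2 members at 10 counts or more in the controls and 6 to 19 in the injured mice. Cd3e had no counts in the controls and 0 to 129 counts in the SCI + Vehicle mice.

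**Figure D2:**
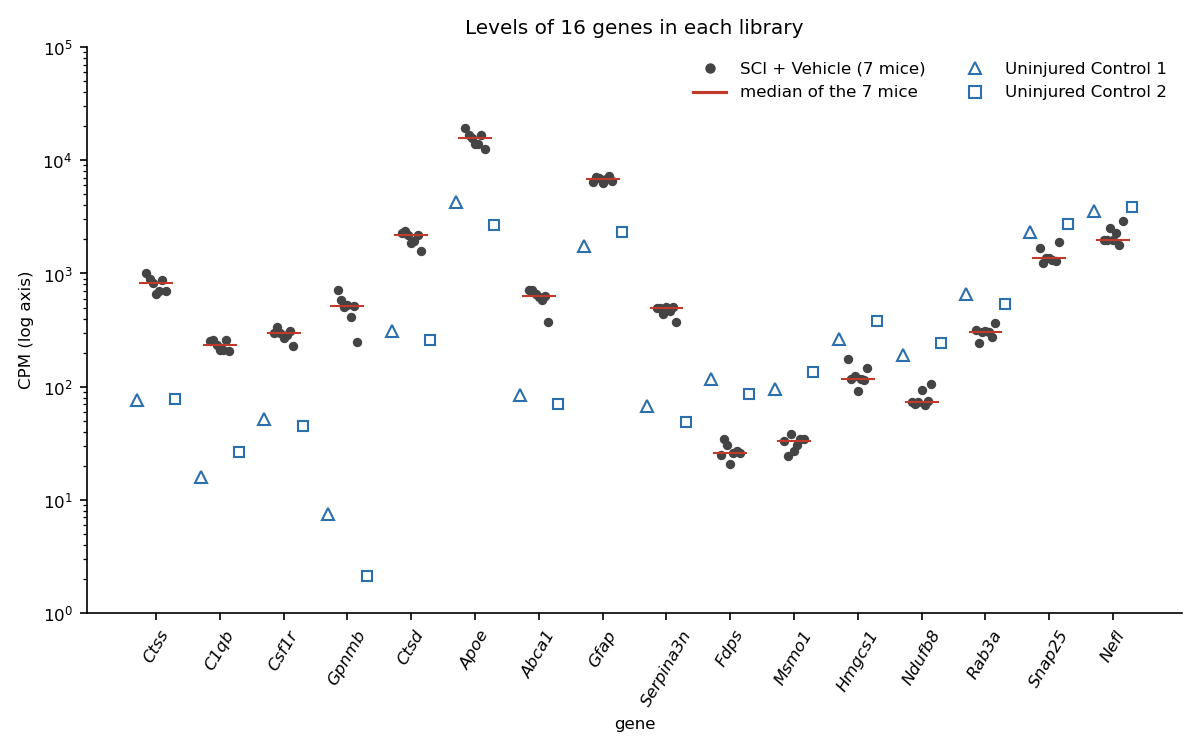
CPM (log axis) of 16 genes in each library, with the 7 SCI + Vehicle mice as filled circles, Uninjured Control 1 as an open triangle and Uninjured Control 2 as an open square; the horizontal bar is the median of the 7 mice. The controls lie below all 7 mice for the phagocyte, astrocyte and LXR target genes and above them for the cholesterol synthesis, respiratory chain, synapse and axon genes.

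Complement genes were upregulated in 8 of 13 tested members and downregulated in 1. Beside the 3 C1q chains, C4b, whose product carries the classical pathway on from C1 and whose reads can be shared with its copy C4a, had 130.0 and 58.3 CPM against 451 to 727 CPM, median 589 (log2 fold change 2.68 ± 0.28 SE, adjusted p = 8.92e-05). Clu, clusterin, an inhibitor of the terminal complex and an abundant astrocyte lipoprotein, had 574 and 683 CPM against 973 to 1144 CPM, median 1110.4. C3, on which all complement routes converge, was at 804 and 331 CPM against 783 to 1355 CPM, median 1288, and was called (log2 fold change 1.10 ± 0.28 SE, adjusted p = 0.0138), although its lowest injured value lay below control 1. Cfb, a protease of the alternative pathway that liver also makes, was the downregulated member, with 43.6 and 22.4 CPM against 2.32 to 12.8 CPM, median 7.89. The receptors of the C3a and C5a fragments, C3ar1 and C5ar1, had no counts in the controls and 460 to 1270 counts and 55 to 158 counts in the SCI + Vehicle mice.

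Of 10 tested class I antigen presentation genes, 5 were upregulated, with a median of 0.79, and 8 were called without control 1. H2-Q4, B2m, H2-D1, H2-K1 and Pdia3 were these genes, and the transplantation antigen gene H2-D1 had 6.45 and 9.82 CPM against 18.8 to 30.3 CPM, median 25.9 (log2 fold change 1.60 ± 0.32 SE, adjusted p = 0.00379). The H2 genes belong to a family of near-identical copies among which reads can be split, and H2-Q6, H2-Q7 and H2-T22 had 0 counts in all libraries, so the values of single members are uncertain. Cd74, the class II invariant chain, had 14.4 and 6.90 CPM against 19.1 to 127 CPM, median 58.2 (log2 fold change 2.52 ± 0.67 SE, adjusted p = 0.0158) and was the only one called of 3 tested class II genes. H2-Eb1 and H2-Aa were not called and overlapped with the controls, which lay at 10.2 and 16.5 CPM for H2-Aa against 4.02 to 34 CPM, median 24.1. Of 19 tested interferon-stimulated genes, 7 were upregulated, with a median of 0.87. Irf9, a subunit of the factor that type I interferon activates, had 1.26 and 5.68 CPM against 13.6 to 28.7 CPM, median 25.3 (log2 fold change 2.74 ± 0.53 SE, adjusted p = 0.0033), and Gbp2, a guanylate-binding protein, rose by 1.90 on the log2 scale. This count depended on single libraries: 4 members were called without control 1, 13 without control 2, 3 without SCI + Vehicle replicate 2 or 6 and 4 without replicate 1, and 3 were called in all 9 fits with 1 library left out.

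Lysosomal genes were upregulated in 27 of 53 tested members, downregulated in 1 and not called in 25, with a median of 0.67, and 25 of the 27 were called in all 9 fits with 1 library left out. Beside the cathepsins S, D, Z and B, Hexa, a subunit of lysosomal hexosaminidase, had 23.2 and 18.9 CPM against 74.4 to 133 CPM, median 108 (log2 fold change 2.35 ± 0.23 SE, adjusted p = 6.14e-05). Tpp1, a serine protease of the lysosome, was at 37.1 and 36.9 CPM against 88.7 to 123 CPM, median 105. Psap, the precursor of the sphingolipid activators, changed less, with 854 and 834 CPM against 1142 to 1371 CPM, median 1272 (log2 fold change 0.59 ± 0.11 SE, adjusted p = 0.00245), but all 7 mice lay above both controls, which were close together. The downregulated member was Laptm4b, with 114 and 119.7 CPM against 46.1 to 74.8 CPM, median 62.8, and without control 2 there were 4. Glb1, which encodes beta-galactosidase, was not tested because it had 619 and 0 counts against 208 to 585, median 471.

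Of 16 tested LXR targets and lipid efflux genes, 8 were upregulated and 2 downregulated. Abca1, the transporter that loads cholesterol onto apolipoproteins (chromosome 4, 53030789 to 53159988), had 84.1 and 70.9 CPM against 373 to 722 CPM, median 628 (log2 fold change 2.99 ± 0.24 SE, adjusted p = 1.4e-05). Lpcat3, an LXR target that builds polyunsaturated phospholipids, had 1.94 and 1.17 CPM against 12.3 to 31.2 CPM, median 18.7 (log2 fold change 3.68 ± 0.46 SE, adjusted p = 0.000276), with 37 and 25 counts in the controls. Abcg1, a second sterol transporter, had 41.6 and 65.7 CPM against 104 to 162 CPM, median 142, and Plin2, the coat protein of lipid droplets, 19.2 and 17.1 CPM against 35.7 to 63.6 CPM, median 49.5. Soat1, which esterifies cholesterol for storage, was at 42.9 and 45.8 CPM against 70.8 to 94.3 CPM, median 89.9. In all 5 of these genes the groups did not overlap. Mylip, a ubiquitin ligase and LXR target, rose by 2.27 on the log2 scale, from 6.24 and 22 CPM to 37 to 87.2 CPM, median 68.2. Of the receptors themselves, Nr1h2, which encodes LXR beta, fell from 113 and 125 CPM to 52.8 to 85.2 CPM, median 75.8, while Nr1h3, LXR alpha, was not called (18.4 and 10.0 CPM against 3.73 to 11.9 CPM, median 7.10). Apoc1 was among the downregulated members of the list, but it was not called in all 9 fits with 1 library left out.

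All 26 members of the cholesterol biosynthesis list were tested, 16 were downregulated, none was upregulated, and the median log2 fold change was -1.17. Summed over the list, the level was 2094 and 2092 CPM in the controls and 895 to 1083 CPM in the SCI + Vehicle mice, so the controls, which were far apart in many genes, lay close together here. Msmo1, a C4 methyl sterol oxidase (chromosome 8, 64718123 to 64733578), had 96.2 and 136 CPM against 24.7 to 38 CPM, median 33.4 (log2 fold change -1.87 ± 0.19 SE, adjusted p = 7.75e-05). Fdps, farnesyl diphosphate synthase, had 118 and 86.7 CPM against 20.9 to 34.8 CPM, median 26.1 (log2 fold change -1.91 ± 0.20 SE, adjusted p = 8.75e-05). Both controls lay above all 7 injured mice in both genes. Cyp51, Sqle and Fdft1, which act between farnesyl diphosphate and lanosterol or directly after it, fell, with log2 fold changes of -1.19, -1.42 and -1.34. Hmgcs1, a synthase early in the pathway, had 265 and 380.0 CPM against 91 to 177 CPM, median 118. Stard4, a carrier of sterol between membranes that is itself a target of SREBP2, had 33.3 and 65.2 CPM against 11.7 to 17.1 CPM, median 14.4. Insig1, the sterol-sensing retention factor of the SREBP pathway, is also a target of SREBP2 and had 96 and 75.2 CPM against 28.3 to 49.5 CPM, median 34.1. Srebf2, the gene of SREBP2, was not called (188 and 168 CPM against 71.4 to 148 CPM, median 127, adjusted p = 0.0578), and the enzyme genes Acat2, Idi1, Lss, Tm7sf2, Nsdhl, Hsd17b7, Ebp and Ggps1 and the SREBP escort gene Scap were not called either. Of the 16 called members, 14 were called in all 9 fits with 1 library left out, and the exceptions were Pmvk and Mvd. Without control 2, 2 members were called as upregulated. Oligodendrocytes, astrocytes and liver all make sterol, and their part in these values was not tested. Liver transcripts, described at the end, moved the same way, with a summed level of 11640 and 2468 CPM in the controls and 218 to 385 CPM in the injured mice, while the sum of the cholesterol list was nearly equal in the 2 controls. The summed level of the myelin list was 23416 and 28555 CPM in the controls and 22875 to 27664 CPM in the SCI + Vehicle mice.

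The bases before the start sites of 3 genes of the sterol pathway and 3 microglial genes are shown because SREBP2 and the myeloid factor PU.1, known regulators of such genes, bind short elements near start sites. Sequences are from RefSeq on GRCm38.p6, 250 bases before the most upstream of the starts listed for each gene among the promoters used. A gene can have a start farther upstream than those listed (the annotated span of C1qc begins within the bases shown). A promoter was found for 8313 of the 10854 tested genes. The letters CACNCCA (N for any base), the core of a sterol element, were searched on both strands and are in capitals in the first 3 sequences, the called cholesterol genes with the smallest p that hold them. The letters GGAAGT, the core bound by PU.1 and other ETS factors, were searched on both strands and are in capitals in the last 3. These are 3 of the 4 called homeostatic microglia genes with a promoter that hold them.
Msmo1, chr8:64733579-64733828, minus strand: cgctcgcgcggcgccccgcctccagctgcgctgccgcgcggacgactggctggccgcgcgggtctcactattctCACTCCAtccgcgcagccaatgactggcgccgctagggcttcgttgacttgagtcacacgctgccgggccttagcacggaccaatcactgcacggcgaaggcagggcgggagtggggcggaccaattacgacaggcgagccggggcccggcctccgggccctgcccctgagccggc
Hmgcs1, chr13:119690101-119690350, plus strand: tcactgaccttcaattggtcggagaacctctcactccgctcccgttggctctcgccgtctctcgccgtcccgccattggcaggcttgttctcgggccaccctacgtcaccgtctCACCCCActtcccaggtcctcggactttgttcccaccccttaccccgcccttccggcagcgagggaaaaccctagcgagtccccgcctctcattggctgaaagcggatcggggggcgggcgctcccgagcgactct
Insig1, chr5:28071162-28071411, plus strand: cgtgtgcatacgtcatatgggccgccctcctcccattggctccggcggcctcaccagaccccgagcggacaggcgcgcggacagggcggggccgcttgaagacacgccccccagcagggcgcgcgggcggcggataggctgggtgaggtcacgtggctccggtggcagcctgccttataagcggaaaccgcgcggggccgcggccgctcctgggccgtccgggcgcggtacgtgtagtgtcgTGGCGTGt
C1qc, chr4:136892915-136893164, minus strand: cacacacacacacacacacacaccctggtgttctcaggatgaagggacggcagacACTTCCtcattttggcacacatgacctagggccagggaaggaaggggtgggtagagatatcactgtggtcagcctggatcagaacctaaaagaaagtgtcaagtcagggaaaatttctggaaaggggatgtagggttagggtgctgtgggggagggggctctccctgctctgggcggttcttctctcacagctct
C1qb, chr4:136886201-136886450, minus strand: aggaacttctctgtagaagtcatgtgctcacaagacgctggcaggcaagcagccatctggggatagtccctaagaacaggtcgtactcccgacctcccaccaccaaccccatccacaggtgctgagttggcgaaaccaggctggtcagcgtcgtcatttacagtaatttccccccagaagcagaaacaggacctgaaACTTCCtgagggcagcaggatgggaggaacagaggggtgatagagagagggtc
Laptm5, chr4:130913066-130913315, plus strand: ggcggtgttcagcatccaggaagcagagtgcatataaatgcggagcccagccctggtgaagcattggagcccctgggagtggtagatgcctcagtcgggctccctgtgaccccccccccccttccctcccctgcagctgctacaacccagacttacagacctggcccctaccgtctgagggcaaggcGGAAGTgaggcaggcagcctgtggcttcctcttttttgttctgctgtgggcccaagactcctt
CACNCCA was found in 5 of 19 cholesterol list members with a promoter (26.3%) and in 15.2% of all tested genes, and GGAAGT in 4 of 17 homeostatic microglia members (23.5%), 4 of 19 phagocyte members (21.1%) and 21.7% of all tested genes. In Msmo1 the match lies 169 bases before the start, in Hmgcs1 129, and in Insig1 it ends 1 base before it. These matches are letters only, and the shares of the microglia and phagocyte lists are close to that of all tested genes.

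**Figure D3:**
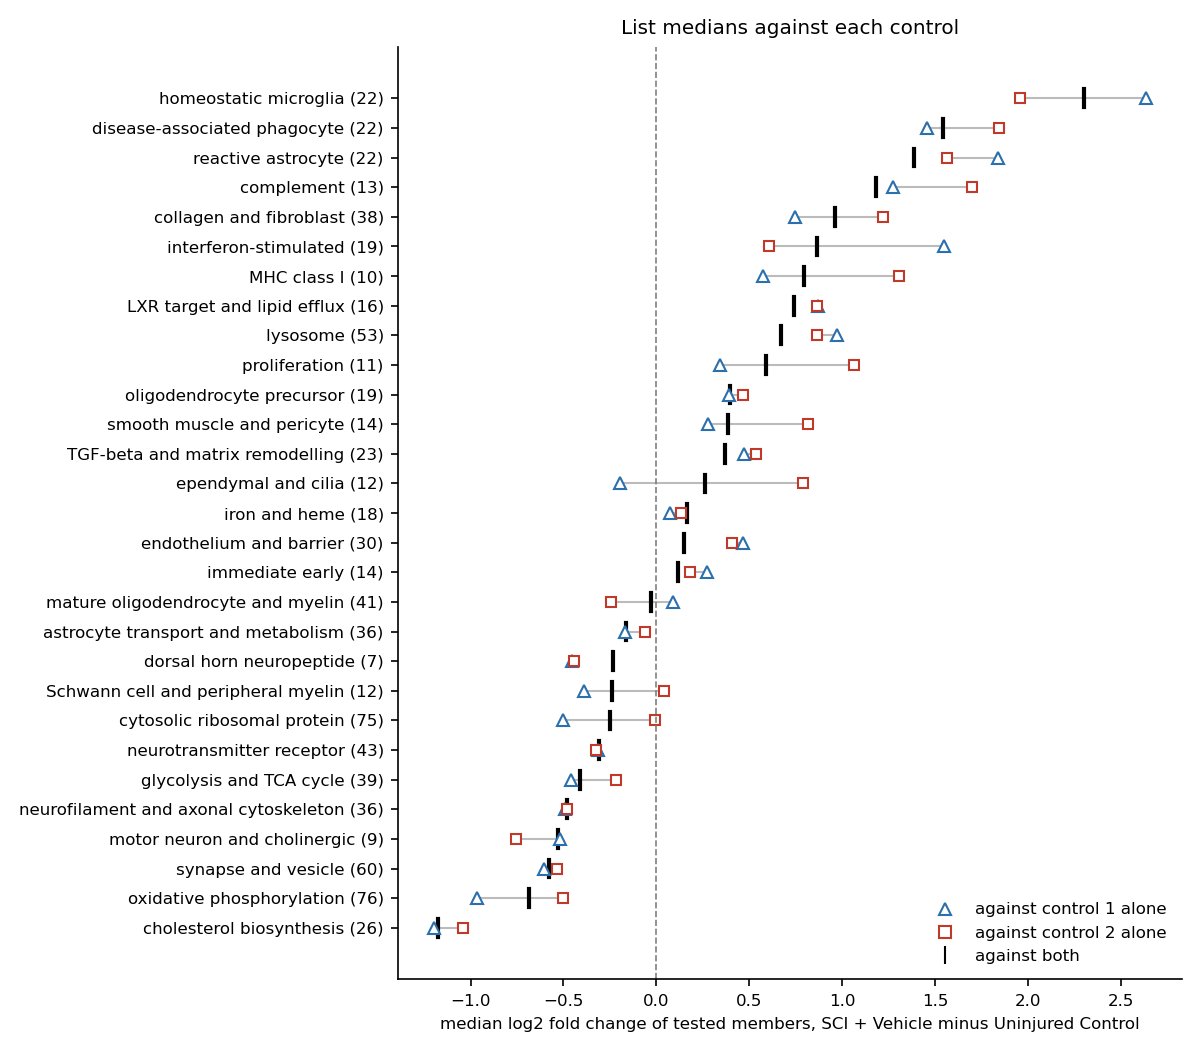
Median log2 fold change of the tested members of each list (lists with 5 or more tested members) against Uninjured Control 1 alone (triangles) and against Uninjured Control 2 alone (squares), with the median of the fit on both as a bar; the dashed line is 0. The ependymal, mature oligodendrocyte and Schwann cell lists lie on opposite sides of 0 against the 2 controls, and the other lists drawn lie on the same side.

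In the reactive astrocyte list, 14 of 22 tested members were upregulated, none was downregulated and the median was 1.39. Whole-tissue RNA does not show which cells carried the transcripts of this list. Gfap, the intermediate filament by which reactive astrocytes are recognized (chromosome 11, 102887336 to 102897200), had 1745 and 2308 CPM against 6274 to 7208 CPM, median 6804 (log2 fold change 1.74 ± 0.13 SE, adjusted p = 1.05e-05). Serpina3n, a secreted protease inhibitor, had 67.2 and 49.2 CPM against 373 to 509.5 CPM, median 496 (log2 fold change 3.01 ± 0.18 SE, adjusted p = 2.16e-06). A2m, alpha-2-macroglobulin, had 33.1 and 70.9 CPM against 399 to 593 CPM, median 532 (log2 fold change 3.35 ± 0.28 SE, adjusted p = 1.48e-05). Cd44, the hyaluronan receptor, had 18.1 and 17.3 CPM against 78.1 to 124 CPM, median 117, and Vim, vimentin, 162 and 79.7 CPM against 527 to 1024 CPM, median 934. No injured mouse overlapped with a control in these 5 genes. S100a6 had 4.98 and 1.08 CPM against 48.5 to 85.2 CPM, median 59.6, with 95 and 23 counts in the controls, and Tgm2, tissue transglutaminase, rose by 1.65 on the log2 scale. Markers of acute reactivity that could not be tested were Lcn2, with 0 and 35 counts against 240 to 961, median 580, and Osmr, the oncostatin M receptor, with 135 and 0 counts against 539 to 1225, median 981.

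The transport and metabolism genes of astrocytes, 36 of which were tested, gave 8 upregulated and 8 downregulated members and a median of -0.17. Aqp4, the water channel of astrocyte endfeet, had 583 and 779.8 CPM against 1417 to 1709 CPM, median 1622 (log2 fold change 1.20 ± 0.14 SE, adjusted p = 0.000159). Fabp7, a fatty acid binding protein of immature and reactive astrocytes, had 22.1 and 22.5 CPM against 55.4 to 69.2 CPM, median 59.2, and the glutamate transporter gene Slc1a3 123 and 108 CPM against 166 to 203 CPM, median 189. Downregulated were Kcnj10, the potassium channel Kir4.1, with 1044 and 946 CPM against 579.8 to 734 CPM, median 665 (log2 fold change -0.57 ± 0.11 SE, adjusted p = 0.0037), and the GABA and glycine transporter genes Slc6a11 (568 and 383 CPM against 226 to 328 CPM, median 244) and Slc6a9 (248 and 172 CPM against 111 to 144 CPM, median 129). Gpc5, a glypican, had 94.6 and 91.9 CPM against 45.8 to 58 CPM, median 51.6. For Slc1a2, the main glutamate transporter of the adult cord, the values were 3853 and 4487 CPM against 3190.4 to 3923 CPM, median 3573 (log2 fold change -0.21, adjusted p = 0.171), and Glul, glutamine synthetase, was not called either, at 1326 and 1030.4 CPM against 1033 to 1129.5 CPM, median 1059.5. Of these, 7 of the 8 upregulated and 6 of the 8 downregulated members were called in all 9 fits.

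Of 41 tested members of the mature oligodendrocyte and myelin list, 4 were upregulated (9.76%) and 6 downregulated (14.6%), with a median of -0.03. These shares are near the 12.3% and 14.1% over all tested genes. The upregulated members included Cldn11, Apod and Tspan2, none of which was called in all 9 fits with 1 library left out. Mbp, myelin basic protein, had 8361 and 8923 CPM against 6779 to 9659 CPM, median 7106 and was not called. Mog, a minor protein of the outer myelin surface, was downregulated, with 144 and 138 CPM against 86.3 to 117 CPM, median 101 (log2 fold change -0.50 ± 0.14 SE, adjusted p = 0.0179), and Fa2h and Ugt8a, which make the galactolipids of myelin, had 110.2 and 222 CPM against 65.5 to 100.3 CPM, median 88.3, and 128 and 199 CPM against 98 to 112 CPM, median 104. Without control 1 the list gave 3 upregulated and 12 downregulated members, and without control 2 it gave 13 and 3. Qdpr and Mog were the downregulated members called in all 9 fits.

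Oligodendrocyte precursor genes were upregulated in 5 of 19 tested members, with none downregulated. Without control 1, 8 were upregulated and 1 downregulated, and without control 2 these counts were 7 and 2. Gpr17, a receptor of precursors that have begun to differentiate, had 22.9 and 27.5 CPM against 51.6 to 82.3 CPM, median 65.8 (log2 fold change 1.41 ± 0.21 SE, adjusted p = 0.000883), and C1ql1 had 3.51 and 3.66 CPM against 9.56 to 17.4 CPM, median 11.8. Cspg4, the proteoglycan NG2 of precursors and pericytes, was at 14.2 and 1.17 CPM against 28.6 to 78.3 CPM, median 65.4, with the controls far apart. Pdgfra, their growth factor receptor, was not called (58.6 and 51.2 CPM against 49.5 to 118 CPM, median 88.1), nor were Olig1, Olig2 and Sox10. Of the Schwann cell list, 2 of 12 tested members were upregulated (16.7%, near the 12.3% over all tested genes). They were Fxyd1 (32.8 and 21.4 CPM against 83.4 to 109.9 CPM, median 96) and Cdh19 (15.6 and 12.4 CPM against 32.3 to 54.3 CPM, median 41.6). Pmp22 overlapped between the groups, with 218 and 135 CPM against 64.6 to 202 CPM, median 127.

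In the synapse and vesicle list, which holds the release machinery of neurons, all 60 members were tested, 33 were downregulated and none was upregulated, with a median of -0.58, and 22 of the 33 were separated. Rab3a, a GTPase of synaptic vesicles (chromosome 8, 70754703 to 70758608), had 658 and 533 CPM against 242 to 363 CPM, median 305 (log2 fold change -0.98 ± 0.14 SE, adjusted p = 0.00058). Cplx1, a complexin of fast release, had 1725 and 1645 CPM against 632 to 1218 CPM, median 796 (log2 fold change -1.02 ± 0.18 SE, adjusted p = 0.00203). Snap25, a t-SNARE, had 2329 and 2748 CPM against 1229.5 to 1896 CPM, median 1370.2 (log2 fold change -0.81 ± 0.15 SE, adjusted p = 0.00311). In each, both controls lay above all 7 injured mice. Nrgn, a calmodulin-binding protein of dendrites, Celf4, a neuronal RNA-binding protein, and Eno2, neuronal enolase, fell, with log2 fold changes of -1.44, -0.82 and -0.81. Leaving out 1 SCI + Vehicle mouse gave 27 to 37 downregulated members. In the neurofilament and axonal cytoskeleton list 22 of 36 tested members were downregulated and 1 upregulated, with a median of -0.48. Nefl, the light neurofilament subunit, had 3581 and 3895 CPM against 1797 to 2933 CPM, median 1989 (log2 fold change -0.76 ± 0.16 SE, adjusted p = 0.00495). Kif5a, a motor of axonal transport, had 3857 and 4338 CPM against 1972 to 2948 CPM, median 2032 (log2 fold change -0.89 ± 0.14 SE, adjusted p = 0.00133). The upregulated member was Dpysl3, a growth cone protein, with 72.8 and 101 CPM against 114 to 141 CPM, median 125, and the upregulated count was 0 without control 1 and 4 without control 2. Gap43, the growth-associated protein of regenerating axons, was not called, with 92.1 and 85.1 CPM against 71.6 to 93.2 CPM, median 80.9.

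Among 43 tested receptor and transmitter genes, 9 were downregulated and 4 upregulated. Slc32a1, the vesicular transporter of GABA and glycine, had 319 and 239 CPM against 72.7 to 181 CPM, median 126 (log2 fold change -1.18 ± 0.24 SE, adjusted p = 0.00459), and Gria1, an AMPA receptor subunit, 315 and 259 CPM against 179 to 213 CPM, median 201. Gabrb1 and Grm5, a GABA receptor subunit and a metabotropic glutamate receptor that astrocytes also express, were upregulated, with 12.7 and 19.2 CPM against 36 to 51.6 CPM, median 39.4, and 67.6 and 74.6 CPM against 104 to 141 CPM, median 123. Slc17a6, the glutamate carrier of spinal excitatory neurons, was downregulated with 178 and 193 CPM against 107 to 172 CPM, median 125, but not in all 9 fits. The downregulated count was 4 without SCI + Vehicle replicate 2, 3 or 6 and 5 without replicate 5. The upregulated count was 2 without replicate 3, 7 without control 1 and 8 without control 2. Of 9 tested motor neuron genes 3 were downregulated: the acetylcholine carrier Slc18a3 (80.8 and 42.3 CPM against 16.3 to 31.7 CPM, median 22.2), the filament gene Prph (111 and 109 CPM against 38.4 to 70.7 CPM, median 55.5) and Chat, the enzyme that makes acetylcholine (24 and 67.6 CPM against 15.1 to 29.7 CPM, median 20.2). Chat was called in 3 of the 9 fits with 1 library left out, and without control 1 there were 6 downregulated members. Of 7 tested dorsal horn neuropeptide genes 2 were downregulated, Sst (125 and 94 CPM against 45.6 to 80.3 CPM, median 62.4) and Cck (16.7 and 60.5 CPM against 9.84 to 23.4 CPM, median 17.1). Neither was called in all 9 fits, the count was 1 in each of them but the fit without SCI + Vehicle replicate 7, and the direction of Cck turned without control 2. Penk (197 and 226 CPM against 132 to 204 CPM, median 159.7) and Tac1 (16.8 and 11.8 CPM against 6.71 to 15.8 CPM, median 13.4), which encode enkephalin and substance P, were not called.

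Matrix genes of the fibrotic scar were upregulated in 11 of 38 tested members of the collagen and fibroblast list and downregulated in 1, with a median of 0.96. Col16a1 had 16 and 26.5 CPM against 78.4 to 106 CPM, median 97 (log2 fold change 2.16 ± 0.22 SE, adjusted p = 7.82e-05), and Thbs2, a matricellular thrombospondin, 41.6 and 46.7 CPM against 96.6 to 171 CPM, median 163 (log2 fold change 1.74 ± 0.22 SE, adjusted p = 0.000268). Col12a1 had 48.5 and 50.6 CPM against 81.1 to 146 CPM, median 122, and Col6a1, a chain of the collagen around fibroblasts and Schwann cells, 6.50 and 7.28 CPM against 12.5 to 82.6 CPM, median 61.3. The fibrillar collagen genes varied more among the injured mice: Col1a1 had 33.9 and 73 CPM against 47.5 to 399 CPM, median 156, and Col3a1 34.3 and 41.3 CPM against 12.9 to 244 CPM, median 134, and neither was called. SCI + Vehicle replicates 4 and 7 were the lowest in the summed level of this list, at 3391 and 2903 CPM, against 5336 to 6681 CPM in the other 5 mice and 3896 and 2829 CPM in the controls. The upregulated count was 20 without SCI + Vehicle replicate 7 and 8 to 13 without any other injured mouse, and the downregulated count was 4 without control 2. Col15a1, a collagen of vessel and nerve basement membranes, was upregulated, with 9.28 and 7.70 CPM against 17 to 46.4 CPM, median 34.7. Cd248, endosialin of perivascular fibroblasts and pericytes, was the downregulated member, with 30.5 and 27.5 CPM against 2.63 to 10.0 CPM, median 5.79 (log2 fold change -2.27 ± 0.38 SE, adjusted p = 0.0016), and both controls lay above all injured mice. Fn1, fibronectin, was not called (249 and 276 CPM against 213 to 913 CPM, median 615).

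Of 30 tested endothelial genes, 5 were upregulated (16.7%) and 2 downregulated (6.67%), beside 12.3% and 14.1% of all tested genes, and none was called in all 9 fits. The upregulated count was 3 without any 1 of SCI + Vehicle replicates 1 to 5, and the downregulated count was 1 without control 1 and 5 without control 2. Ptprb and Tjp1 rose by 1.06 and 0.62 on the log2 scale, and Cav1, caveolin, had 7.13 and 8.55 CPM against 11.3 to 27.4 CPM, median 18.4. Flt4, a VEGF receptor of lymphatic vessels, had 16.1 and 11.6 CPM against 2.56 to 7.91 CPM, median 5.62, and was downregulated. In the smooth muscle and pericyte list 3 of 14 were upregulated (21.4%) and 1, Tpm1, downregulated (7.14%), with Rgs5, a pericyte marker, at 20.4 and 17.7 CPM against 27.9 to 47.5 CPM, median 38.3. Acta2 had 135 and 0 counts against 165 to 617, median 389, and was not tested. Of 23 tested genes of TGF-beta signalling and matrix remodelling, 4 were upregulated and the 2 protease genes Mmp15 and Mmp17 downregulated, Mmp17 with a direction that turned without control 2. The upregulated count was 8 without control 1 and 9 without control 2. Adam17, a sheddase of cytokines and receptors, had 10.3 and 12 CPM against 35.9 to 58.7 CPM, median 50.2 (log2 fold change 2.10 ± 0.27 SE, adjusted p = 0.000311), and the receptor genes Tgfbr2 and Tgfbr1 were at 7.66 and 33.4 CPM against 75.6 to 107 CPM, median 94.1, and 56 and 19.6 CPM against 62.9 to 113 CPM, median 95.2. Tgfb1, which encodes the ligand, had 0 and 289 counts against 377 to 757, median 589. Protease genes with no counts in the controls included Mmp12, the macrophage elastase, with 141 to 513 counts, and Plau, urokinase, with 340 to 1234 counts and a bound of at least 271-fold. Ependymal genes gave 1 upregulated of 12 tested, the adenylate kinase gene Ak7, with 3 without either control and 0 without any 1 of SCI + Vehicle replicates 1 to 6. Foxj1, the regulator of motile cilia, was not called (32.5 and 41.3 CPM against 12.6 to 37.8 CPM, median 28.7).

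Energy metabolism genes were lower in the injured cord, more so against control 1 than against control 2. Of 76 tested subunits of oxidative phosphorylation 49 were downregulated and none upregulated, with medians of -0.68 on both controls, -0.96 against control 1 alone and -0.50 against control 2 alone. By complex, 22 of 36 subunits of complex I, 3 of 4 of complex II, 6 of 9 of complex III, 8 of 11 of complex IV and 10 of 15 of complex V were downregulated. Ndufb8, a subunit of complex I, had 192 and 244 CPM against 69.4 to 105 CPM, median 74 (log2 fold change -1.45 ± 0.17 SE, adjusted p = 0.000185), and Cox6c, a subunit of complex IV, 780.1 and 599.6 CPM against 268 to 404 CPM, median 317 (log2 fold change -1.11 ± 0.14 SE, adjusted p = 0.000324). Atp5l and Uqcr11, subunits of complexes V and III, had 149 and 90.9 CPM against 36.5 to 50.9 CPM, median 41.6, and 114 and 98.4 CPM against 31.2 to 56.1 CPM, median 38. Both controls lay above all injured mice in these 4 genes. Without control 1 the list gave 32 downregulated members and without control 2 it gave 57, and 28 were called in all 9 fits. Glycolysis and TCA cycle genes were downregulated in 14 of 39 and upregulated in 2, or in 4 without control 1. Hk1, the hexokinase of brain and axon terminals, had 359 and 437 CPM against 240.2 to 274 CPM, median 253, and the lactate carrier Slc16a1, upregulated, 48.8 and 36.8 CPM against 83.2 to 121 CPM, median 114 (log2 fold change 1.35 ± 0.19 SE, adjusted p = 0.00058). Of 75 ribosomal protein genes 18 were downregulated and 1 upregulated, but without control 1 more were upregulated (8) than downregulated (5), and without control 2 the counts were 2 and 40. Summed over the list, ribosomal protein genes were at 19722 and 14007 CPM in the controls and at 12538 to 16053 CPM in the injured mice, so control 2 lay within the injured range.

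Proliferation genes gave 2 upregulated of 11 tested, the cell cycle inhibitor Cdkn1a (3.20 and 10.3 CPM against 17.6 to 27.1 CPM, median 23.2) and Ccnd2, cyclin D2 (32.2 and 48.2 CPM against 60.4 to 102 CPM, median 82), and without control 1 there were 5. Mki67, a mark of cycling cells, was not called (16 and 21.6 CPM against 19.3 to 122 CPM, median 41.1), and Top2a had no counts in the controls and 132 to 661 counts in the SCI + Vehicle mice. Of 18 tested iron and heme genes 3 were upregulated (16.7%, near the 12.3% over all tested genes), or 5 without control 2. They were led by the ferritin light chain Ftl1, with 219 and 153 CPM against 311 to 478 CPM, median 414 (log2 fold change 1.09 ± 0.19 SE, adjusted p = 0.0018). The heavy chain Fth1 was not called (3707 and 3589 CPM against 2593 to 3598 CPM, median 3022). Immediate early genes, which handling of the tissue can raise, gave 1 call of 14 tested, Klf6, with a count of 0 to 3 when 1 library was left out, and Fos had 12.9 and 13.7 CPM against 12 to 22.2 CPM, median 15.4.

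Outside the lists, the separated genes with the largest changes or the smallest p were of mixed function. Mpeg1, the pore-forming perforin-2 of macrophages (chromosome 19, 12460770 to 12465285), had 13.9 and 5.97 CPM against 268 to 478 CPM, median 381 (log2 fold change 5.24 ± 0.36 SE, adjusted p = 3.52e-06). Itgb5, an integrin subunit, had 70.9 and 60.5 CPM against 208 to 275 CPM, median 251 (log2 fold change 1.92 ± 0.15 SE, adjusted p = 1.05e-05). Cyba, a subunit of the phagocyte NADPH oxidase, rose by 4.55 on the log2 scale from 43 and 21 counts in the controls, and Fyb, an adaptor of T cells and myeloid cells, by 3.93 from 69 and 232 counts. Golm1, Ccnl1, Dmpk and Apaf1 rose by 4.30, 3.79, 3.75 and 3.69 on the log2 scale, from 14 to 110 counts in the controls. Meg3 and Pnisr, a long noncoding RNA and a nuclear protein gene, had 846 and 1678 CPM against 3104 to 4454 CPM, median 3829, and 80.9 and 137 CPM against 322 to 465 CPM, median 385, and were named here because they held in the voom fit. Among the genes that fell, Hagh, glyoxalase II, had 89.1 and 79.5 CPM against 21.9 to 28.7 CPM, median 26.4 (log2 fold change -1.68 ± 0.17 SE, adjusted p = 7.75e-05), and Mnt, a repressor that partners MAX, 117 and 153 CPM against 37.8 to 56.8 CPM, median 48.7. Cd1d1, which presents lipid antigens, had 17.5 and 15.2 CPM against 0.745 to 2.22 CPM, median 1.67 (log2 fold change -3.31 ± 0.39 SE, adjusted p = 0.000195). Reep6, a shaper of the endoplasmic reticulum, had 49.1 and 36.9 CPM against 2.40 to 7.84 CPM, median 4.83, and Scd1, a stearoyl-CoA desaturase of oligodendrocytes and liver, 1045 and 749.9 CPM against 434 to 492 CPM, median 448 (log2 fold change -0.97 ± 0.12 SE, adjusted p = 0.000229). In CPM both controls lay above all 7 injured mice in these 5 genes. In the deposited TPM, however, Cd1d1 was at 23.2 and 0 in the controls against a median of 1.65 in the injured mice. Rps4l, Rpa3, Ripply2, Sowahb, AA415398 and 2900008C10Rik fell, with log2 fold changes of -1.62, -2.67, -2.93, -2.43, -2.27 and -2.82. In TPM, Ripply2 was at 0 in both controls and at a median of 0 in the injured mice, and 2900008C10Rik was at 16.5 and 0 against a median of 3.78. Slc2a2, the glucose transporter GLUT2 of liver and pancreas, also fell, from 13.3 and 15.1 CPM to 0.477 to 2.60 CPM, median 1.52. It is not on the liver list, and its part from liver RNA was not tested; in it control 2 was the higher control, while in the summed liver list control 1 was.

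Hoxd10 was also among the separated downregulated genes, with 51.2 and 37 CPM against 3.00 to 12.2 CPM, median 5.48 (log2 fold change -2.74 ± 0.39 SE, adjusted p = 0.000648). In the deposited TPM the controls lay farther apart, at 63 and 12.6 against a median of 8.96 in the injured mice. Hox genes are expressed along the cord by position, and members with high numbers mark lower levels, so they were looked at after these values were seen. Of the other 6 tested members of groups 9 and 10, Hoxc10 had 137 and 85.9 CPM against 47.7 to 85.8 CPM, median 62.8, and Hoxa10 had 68.2 and 21.2 CPM against 17.8 to 27 CPM, median 19.9. Hoxd9 had 34.2 and 26.3 CPM against 5.81 to 17.3 CPM, median 15.6, and Hoxc9 had 34.3 and 6.72 CPM against 20.2 to 28.9 CPM, median 26.2. Hoxc10, Hoxa10 and Hoxd9 were downregulated, Hoxa10 with a direction that turned without control 1, and Hoxc9 was not called. Hoxa9 (63 and 22.7 CPM against 29.6 to 45.8 CPM, median 38.9) and Hoxb9 (71.1 and 85.6 CPM against 46 to 65.3 CPM, median 62.3) were not called either. The calls were not limited to these groups or to 1 direction. Hoxa7 (120.4 and 134 CPM against 71 to 93.4 CPM, median 77.3), Hoxb8 (192 and 186 CPM against 77.7 to 144 CPM, median 129.9) and Hoxa3 (22.8 and 19.5 CPM against 8.42 to 16.8 CPM, median 10.1) were downregulated. Hoxd4 (10.3 and 2.77 CPM against 16.6 to 24.1 CPM, median 21.8) and Hoxc8 (45.4 and 34.8 CPM against 55.8 to 67.6 CPM, median 61.6) were upregulated. No member of groups 11 to 13 was tested. Hoxd11 had 776 and 0 counts against 0 to 27, median 2, Hoxa11 187 and 0 against 0 to 54, and Hoxc11 186 and 0 against 0 to 11. Hoxc12 had 216 and 0 counts and Hoxd13 0 and 137, against 0 in all 7 injured mice. In the other direction, Hoxd12, Hoxa13, Hoxb13 and Hoxc13 had 0 in both controls and at most 31, 25, 19 and 11 counts in an injured mouse. Whether the segments of the controls were taken at the same level as those of the injured mice was not tested.

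Liver transcripts in the controls were set apart from these results. Of 152 liver list members, 135 had at least 10 counts in control 1, 97 in control 2 and 27 to 85 in the SCI + Vehicle mice. The summed level was 11640 and 2468 CPM in the controls and 218 to 385 CPM in the injured mice. Alb, serum albumin, had 60169 and 10471 counts against 0 to 81, median 5, and Apob, the carrier protein of VLDL, had 6833 and 2521 counts against 0 to 82, median 5. Apoa1, which encodes the main HDL protein, had 5805 and 1354 counts against 0 to 43, median 5, and Pzp, a protease inhibitor, 5272 and 1089 counts against 3 to 79, median 46. Itih3, the remaining one of the 5 with the most counts in the controls, was also counted in the injured cord, with 4802 and 3155 counts against 1951 to 3074, median 2461. Of the 10 tested members 7 were called, all as downregulated, and Adh1, alcohol dehydrogenase 1, had 90.6 and 35 CPM against 0.970 to 7.18 CPM, median 3.34 (log2 fold change -4.20 ± 0.50 SE, adjusted p = 0.000203). Both controls contained these transcripts. The part of liver RNA in the control levels of other genes, upregulated ones such as C3 and C4b included, was not tested gene by gene. With the liver list removed before normalization, 1334 genes were upregulated and 1530 downregulated. In the skeletal muscle list the summed level was 3137 CPM in SCI + Vehicle replicate 3 and 179.5 to 300.04 CPM in the other 6 injured mice, against 268 and 403 CPM in the controls, and without that mouse 1081 genes were upregulated and 1200 downregulated. The other tissue lists held few tested genes: Pvalb was downregulated of 5 skeletal muscle genes, Bpgm upregulated of 2 red blood cell genes, and none of 3 dorsal root ganglion genes and 1 adipose gene was called, while no kidney gene was tested.

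**Figure D4:**
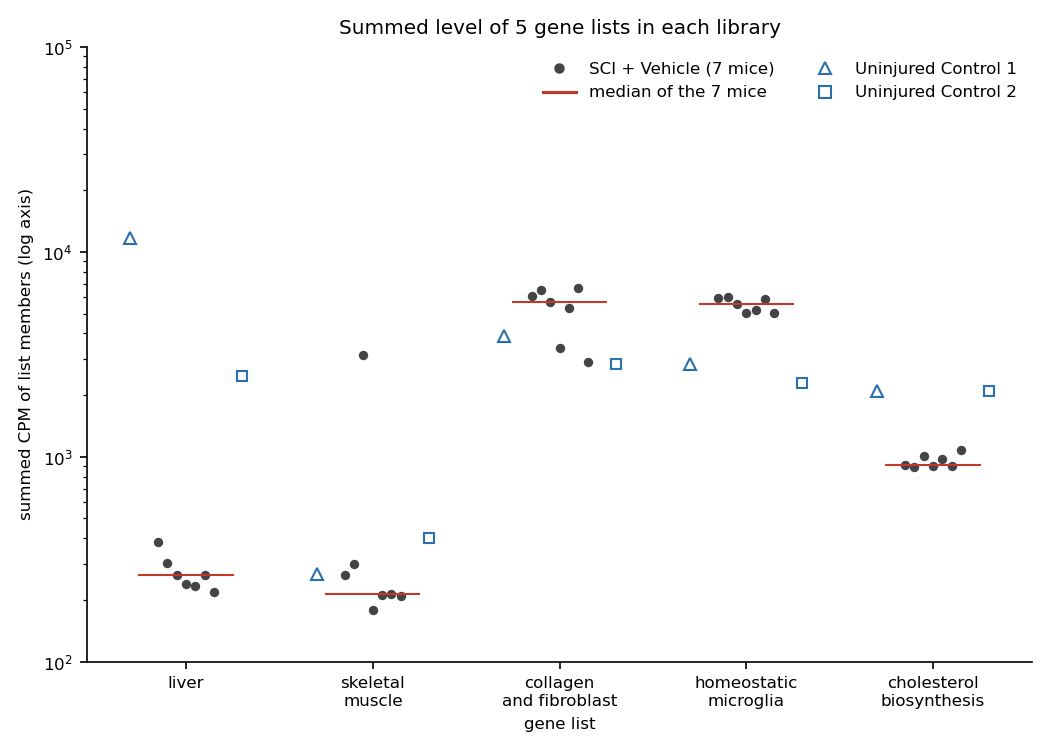
Summed CPM (log axis) of the members of 5 lists in each library: liver, skeletal muscle, collagen and fibroblast, homeostatic microglia, and cholesterol biosynthesis; filled circles are the 7 SCI + Vehicle mice, bars their median, the open triangle Uninjured Control 1 and the open square Uninjured Control 2. The liver list stands far higher in the controls, at 11640 and 2468 CPM, and the muscle list in 1 injured mouse, at 3137 CPM.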

How the data were processed

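Total RNA of thoracic cord was sequenced from 7 SCI + Vehicle and 2 Uninjured Control mice. According to the methods and the submitters' processing notes, reads were checked with FastQC 0.12.1, trimmed with Trimmomatic 0.38, aligned to mm10 with STAR 2.5.4b and quantified with RSEM 1.3.1. The authors deposited whole-number counts and TPM per gene symbol, and the step that made the counts is not given in the sources used here.

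Counts as deposited were tested with edgeR 4.0.16 in R 4.3.3 (TMM, glmQLFit, glmQLFTest; Benjamini-Hochberg over all tested genes), SE being the log2 fold change divided by the square root of F. CPM use the TMM-scaled total of the tested genes. The shared spread lets unequal spread between groups shift calls. With 2 controls no exact permutation test of a single gene was made. Alternatives used DESeq2 1.42.0 and limma 3.58.1, the latter also on the deposited TPM as log2(TPM + 1).

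The comparison, gene lists and tests were chosen with earlier results of these data known. Genes were named by rule: the 10 DEGs with the smallest p in each direction, the 10 separated DEGs with the largest change in each direction, up to 8 members per list by p and then defining members, and 5 liver genes with the most control counts. Other list members were named for their function, and Meg3, Pnisr and the Hox genes for their values, after values were seen. Some genes that these rules named are not reported here. Of the tested genes, 10831 were matched to a RefSeq position. Replicate numbers did not pair the mice (correlations of deviations -0.00781 and 0.0158). No libraries were duplicates: chi-square per degree of freedom was at least 21.3.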

Additional observations from a re-analysis of the deposited data

Results flagged for a closer look

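In 68 sets of values (the mean of each list with 5 or more tested members, and the genes named by p or by size of change) the highest or lowest of the 7 SCI + Vehicle mice was set against the other 6. In 3 sets it stood apart by Dixon's criterion, which marks about 1 in 20 sets by chance. The mean log2(CPM + 1) of the skeletal muscle list was 6.98 in SCI + Vehicle replicate 3 and 3.78 to 4.7 in the other 6 mice. Rpa3, a subunit of replication protein A, was at 6.21 CPM in SCI + Vehicle replicate 1 and 1.52 to 2.75 CPM in the others. Sowahb was at 1.05 CPM in SCI + Vehicle replicate 3 and 3.17 to 4.42 CPM in the others. Both genes were lower in all 7 mice than in either control.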

How the results depend on the processing

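All counts are of upregulated and then downregulated genes, 1334 and 1533 as reported. They were 1681 and 1745 with DESeq2, 1322 and 1556 with DESeq2 size factors, 1326 and 1422 with at least 50 counts in each library, 1946 and 2147 with all 3 groups in 1 fit, and 1334 and 1530 with the liver list removed. They moved by more than 1.5 times in at least 1 direction in these settings: 3437 and 1398 with no count minimum (3436 upregulated outside the liver list), 2666 and 1234 with a mean TPM above 1 in a condition (2665 outside the liver list), 1867 and 371 with limma on log2(TPM + 1) (338 downregulated outside the liver list), 15 and 8 with limma voom and group weights (7 downregulated outside the liver list), and 822 and 500 at a change of more than 2-fold (494 outside the liver list). Without 1 library they ran from 1060 to 2542 and from 1164 to 2231, outside the liver list from 1060 to 2542 and from 1157 to 2223. With the replicate number as a block they were 239 and 156 (154 outside the liver list), but the numbers do not pair the mice and only 2 of the 7 injured mice share a number with a control.

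Of 156 named DEGs, 152 kept their direction in every setting and 118 stayed called in every one in which they were tested, apart from voom and the block, where 135 and 85 lost their call. Many of the 156 were named for a small p or a large change in these same data, so these counts are no separate support. They do not give the share that holds among all DEGs. The direction turned for 2900008C10Rik on log2(TPM + 1) (0.085), for Cck (0.0354) and Mmp17 (0.0814) without control 2, and for Hoxa10 without control 1 (0.0121). Without 1 library these 3 ran from -1.8242 to 0.0354, from -2.2397 to 0.0814 and from -1.6695 to 0.0121 on the log2 scale. The list medians of mature oligodendrocytes, Schwann cells and ependymal cells changed sign with the setting, and those of the other 27 lists did not. The causes were not tested. With 2 controls that differ this much, small changes are not resolved, and a gene at 0 in a control was not tested.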
